A study of Mus musculus with 2 samples.

Results

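Clu, Ly6a, Anxa1, Anxa2, Anxa3, Krt7 and Cd55 were followed in single cells of the mouse jejunum as 7 genes, of 31053 in the files, that are associated with regenerating or fetal-like gut epithelium. They were taken by gene symbol, and all 7 were found, each under 1 identifier. Cells had been sorted for the GFP of an Lgr5-eGFP-IRES-CreER allele, which reports Lgr5, a gene of the stem cells at the crypt base. Mice of 10 to 12 weeks, labelled female, carried this allele in both conditions, with 3 mice per condition. One group had received an Fc control and the other an antagonist of the Wnt receptors FZD5/8, and each was 1 droplet library of 3' transcript ends. The sources used here state neither dose nor duration, the cells of a library cannot be assigned to mice, and sorted cells show nothing of the epithelium that the reporter does not label.

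After injury, the gut epithelium can re-express genes of the fetal gut. Lost Lgr5-positive stem cells are then rebuilt from other crypt cells, and the transcriptional partners YAP and TEAD are known regulators of this programme. Ly6a encodes Sca-1, a membrane-anchored surface protein that marks fetal-like crypt cells, and Clu encodes clusterin, a secreted chaperone that marks rare revival stem cells. Anxa1, Anxa2 and Anxa3 encode annexins, which bind membranes in the presence of calcium. Krt7 encodes a keratin of simple and ductal epithelia, and Cd55 encodes decay-accelerating factor, a surface protein that limits complement.

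Of 12672 control barcodes 11263 were kept, and of 13085 antagonist barcodes 11019, with medians of 4478 and 2732 UMIs (counted transcript molecules) per cell. Of the kept cells, 67 barcodes occurred in both libraries. Both libraries are labelled female, but their sex-linked transcripts differed: 4 Y-linked genes summed to 106 CPM (UMIs scaled to a library or gate total of 1000000) in the control and 5.60 in the antagonist library, and Xist stood at 1.33 and 512 CPM. Sex-linked transcripts and treatment therefore cannot be told apart in any comparison between the libraries. Markers of cells outside the epithelium were low. B or plasma cell markers summed to 23.9 CPM in the control and 3.75 in the antagonist library, T cell or innate lymphocyte markers to 5.12 and 6.92, endothelial markers to 5.78 and 4.09, and fibroblast or muscle markers to 0.121 and 0.0552. With 1 library per condition there was no test. Every interval is a 95% interval for counting error only, and each comparison is between these libraries, not between the conditions.

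The promoters of Anxa2 and Krt7 are shown because these are the most abundant members and their levels differed in opposite directions between the libraries. Each run gives the 250 bases before the RefSeq transcription start (GRCm38.p6), 5′ to 3′ on the gene's strand. Capitals mark matches to AP-1 (TGANTCA) and to a TATA box (TATAAA), searched on both strands together with the TEAD motif GGAATG.
Anxa2, chr9:69453433-69453682, plus strand: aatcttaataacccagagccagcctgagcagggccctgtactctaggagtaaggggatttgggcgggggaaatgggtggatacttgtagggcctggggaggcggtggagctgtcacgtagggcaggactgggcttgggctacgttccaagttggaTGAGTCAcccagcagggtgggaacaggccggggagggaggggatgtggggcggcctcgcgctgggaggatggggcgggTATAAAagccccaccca
Krt7, chr15:101412153-101412402, plus strand: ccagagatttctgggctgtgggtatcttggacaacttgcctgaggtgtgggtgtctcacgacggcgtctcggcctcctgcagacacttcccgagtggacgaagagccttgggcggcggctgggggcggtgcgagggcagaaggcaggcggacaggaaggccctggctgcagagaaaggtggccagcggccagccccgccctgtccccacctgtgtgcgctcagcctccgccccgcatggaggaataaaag
The Anxa2 run holds 1 match to AP-1, whose first base lies at position -95 from the start, and 1 TATA match at -17. The Krt7 run holds none of the motifs. By GENCODE, whose starts differ from those of RefSeq, the whole Krt7 run lies inside the gene, which starts at 101411043. The Anxa2 run ends past the GENCODE start at 69453620, and its TATA match lies past that start. Of the other members, Anxa1 and Cd55 were in the same RefSeq table. Anxa1, whose run also lies inside its GENCODE gene, had the TEAD motif on the minus strand at -236 and a TATA match at -32. Cd55 had none. Of 32851 promoter windows of this length, 12.6% hold the TEAD motif, 6.75% the AP-1 motif and 12.4% the TATA motif, so each match is a description of letters and not of binding.

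Over all kept cells, Anxa2, Ly6a and Anxa3 were higher in the antagonist library, Clu and Krt7 were lower, and the intervals of Anxa1 and Cd55 included equality. Anxa2 (chromosome 9, 69453620 to 69491795, plus strand, GRCm38, as for all coordinates of this paragraph and the next) was counted 2684 times in the control and 4929 times in the antagonist library. These counts are 40.5 CPM (39.0 to 42.1) and 90.7 CPM (88.2 to 93.3), a ratio of 2.24 (2.13 to 2.35). Anxa3 (chromosome 5, 96793339 to 96845966, plus strand) was rare, with 59 UMIs in the control and 84 in the antagonist library, or 0.891 and 1.55 CPM, a ratio of 1.74 (1.23 to 2.46). The stem, cycling, goblet, Paneth, enterocyte, tuft and ungated cells (defined below) were also weighted alike in both libraries. The log2 ratio of Anxa3 was then -0.16 in place of 0.79. This weighting used only cells with at least 3000 UMIs, and the shallower cells held 3 control and 16 antagonist UMIs of Anxa3. The direction of Anxa3 thus changed with the weighting of the gates and the set of cells. Anxa1 (chromosome 19, 20373428 to 20390944, minus strand) had 12 and 10 UMIs, 0.181 and 0.184 CPM, a ratio of 1.02 (0.393 to 2.57). The 3 annexins thus spanned from 10 to 4929 UMIs in a library.

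Ly6a (chromosome 15, 74994877 to 74998031, minus strand) had 1776 UMIs in the control and 2794 in the antagonist library, 26.8 CPM (25.6 to 28.1) and 51.4 CPM (49.5 to 53.4), a ratio of 1.92 (1.81 to 2.04). The control cell richest in Ly6a held 25 of these UMIs among 5642 and carried markers of B or plasma cells, not of epithelium. Without the richest cell of each library the log2 ratio of Ly6a was 0.96, against 0.94 with it. Cd55 (chromosome 1, 130439027 to 130462744, minus strand) had 283 and 204 UMIs, 4.27 and 3.75 CPM, a ratio of 0.878 (0.730 to 1.06). Its near copy Cd55b, whose reads could be shared with it, was at 4.98 and 2.28 CPM. Krt7 (chromosome 15, 101411043 to 101430313, plus strand) had 4778 and 2965 UMIs, 72.2 CPM (70.1 to 74.2) and 54.6 CPM (52.6 to 56.6), a ratio of 0.756 (0.722 to 0.792).

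Clu (chromosome 14, 65968483 to 65981547, plus strand) was close to absent, with 67 UMIs in the control and 22 in the antagonist library, 1.01 CPM (0.784 to 1.28) and 0.405 CPM (0.254 to 0.613). Clu was thus 2.50-fold (1.52 to 4.25) lower in the antagonist library. Of the control UMIs 9 lay in a single cell that carried tuft cell markers, and no antagonist cell had more than 1. The size of the Clu difference moved with the choice of cells: without the 5% of cells with most UMIs its log2 ratio was -0.53, with each cell counted alike -0.39, and with gates weighted alike -0.16, in place of -1.30.

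Of the 7 members, 3 were at least 1.5-fold higher in the antagonist library (Anxa2, Ly6a, Anxa3) and 1 at least 1.5-fold lower (Clu). Among 13757 genes with 20 or more UMIs, 6.5% were that much higher and 19.3% that much lower. The median log2 ratio was 0.03 for the members and -0.15 for all those genes. With a limit of 100 UMIs, which leaves out Clu and Anxa1, the members' median was 0.79. Scaling by the median ratio of genes in place of the total of UMIs shifted every log2 ratio by 0.13 upward, and no member changed direction. All 7 members passed the limit of 20 UMIs, Anxa1 with 22 over both libraries only just.

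**Figure D1:**
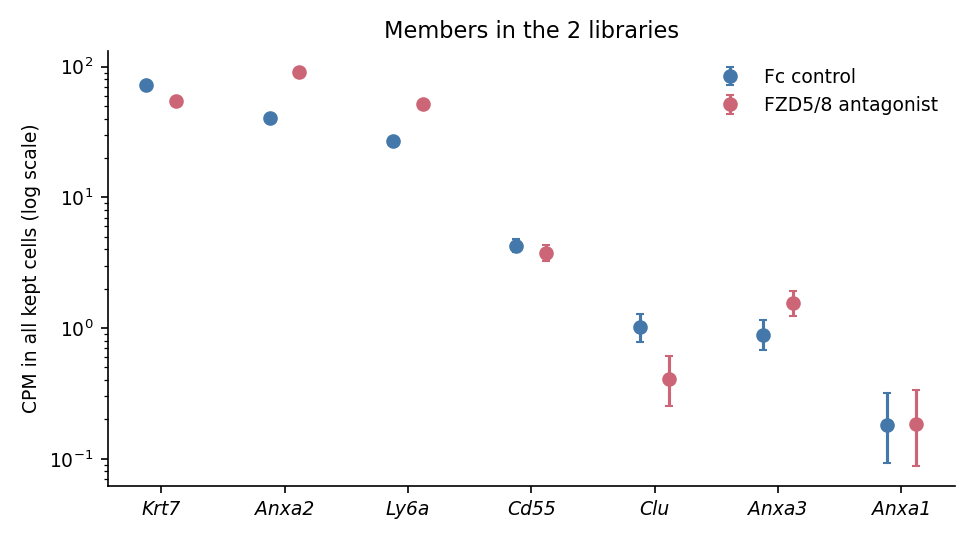
Level of each member in the Fc control library (blue) and the FZD5/8 antagonist library (red), in CPM of all kept cells on a log axis; points are 1 library each and bars are 95% counting intervals. Krt7, Anxa2 and Ly6a lie between 26.8 and 90.7 CPM and the other 4 below 5 CPM, and the points of Anxa2 and Ly6a are higher in the antagonist library while those of Krt7 and Clu are lower.

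The share of cells with a UMI was compared after each cell with at least 3000 UMIs had been thinned at random to that number, which left 7536 control and 5036 antagonist cells. Krt7 was detected in 18.6% of control and 13.5% of antagonist cells, Anxa2 in 9.36% and 19.9%, and Ly6a in 6.54% and 11.8%. Without thinning the shares were 28.8% and 16.6% for Krt7, 14.1% and 21.3% for Anxa2, and 10.2% and 14.9% for Ly6a. The directions were those of the levels. Cd55 was detected in 1.27% and 1.23% of thinned cells, Clu in 0.265% and 0.179%, Anxa3 in 0.239% and 0.496%, and Anxa1 in 0.0531% and 0.0794%. No cell type in the sort is known to lack all 7 genes, so no gate could measure free RNA of the members, and its part in these shares was not tested. Transcripts of Paneth markers were found outside the Paneth gate (gates are defined below). Per 3000 UMIs, the median stem cell held 15 in the control and 5 in the antagonist library. The median enterocyte held 12 and 5, and the median goblet cell 24 and 46. Whether these were free RNA was not tested.

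Cells were assigned to types by how many fixed marker genes they carried at 3000 UMIs, and the thresholds were set after the marker counts had been seen. The gates held 3554 control and 201 antagonist cells for stem markers, 1711 and 1829 for cycling cells, 285 and 405 for goblet cells, 93 and 214 for Paneth cells, 160 and 230 for enterocytes, and 197 and 82 for tuft cells. Enteroendocrine markers gated 43 and 24 cells, too few to rank beside the other gates, so orders of gates leave them out unless they are named, and 1472 and 2022 cells passed no gate. Gated cells were not alike between the libraries. The median stem cell had 17 UMIs of stem markers per 3000 in the control and 7 in the antagonist library, and 1283 of 3554 control but 150 of 201 antagonist stem cells had exactly the number of markers required. The median goblet cell had 162 UMIs of goblet markers in the control and 54 in the antagonist library, and the median Paneth cell 1889 and 724.5 UMIs of Paneth markers. Cells of the goblet gate also carried Paneth markers, with medians of 24 UMIs in the control and 46 in the antagonist library. Their medians for cycling markers were 1 and 4 UMIs, so the antagonist goblet gate does not hold goblet markers alone. The median cycling cell had 13 UMIs of stem markers and 3 of enterocyte markers in the control, and 2 and 9 in the antagonist library. Ratios within a gate therefore do not compare like cells.

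Anxa2 was highest in enterocytes of both libraries and lowest in control Paneth cells. Its level in the enterocyte gate was 314 CPM (288 to 342) in the control and 303 CPM (276 to 332) in the antagonist library. Goblet cells followed with 87.2 and 117 CPM. Tuft cells had 80.6 and 82.2 CPM, and in the control their interval overlapped that of goblet cells. Below them in the control came cells without a gate at 49.6 CPM, cycling cells at 35.5, stem cells at 22.6 and Paneth cells at 1.32. Antagonist cycling cells at 92.5 CPM and cells without a gate at 86.3 lay above the tuft cells of that library, and Paneth cells at 50.9 and stem cells at 42.0 below them. The spread between gates was therefore narrower in the antagonist library.

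The difference in Anxa2 between the libraries lay in cycling cells, with a ratio of 2.61 (2.36 to 2.88), in stem cells at 1.86 (1.33 to 2.54), in cells without a gate at 1.74 (1.57 to 1.92) and in goblet cells at 1.34 (1.15 to 1.56). In enterocytes the ratio was 0.966 (0.851 to 1.09) and in tuft cells 1.02 (0.698 to 1.46), and both intervals include equality. With 1 marker more required, the log2 ratio was 0.34 in stem cells in place of 0.91 and 0.17 in goblet cells in place of 0.42. With 1 marker fewer, it was 0.40 in cells without a gate in place of 0.80 and -0.41 in enterocytes in place of -0.05. The ratio in cycling cells moved less, with log2 values from 1.27 to 1.38. The cycling cells of the 2 libraries differed in stem and enterocyte markers, as given above, and the part of this was not tested. Cells with under 3000 UMIs, which were not gated, gave a ratio of 3.04 (2.53 to 3.67). In these shallow cells 2 of 4 measured members were at least 1.5-fold higher (Anxa2, Ly6a) and 1 as much lower (Krt7), against 10.5% and 26.8% of 11620 genes. Whether these ratios differ between gates was not tested.

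Ly6a had a similar order, with 93.1 CPM (79.1 to 109) in control and 89.5 CPM (75.3 to 106) in antagonist enterocytes, 70.4 and 72.0 CPM in goblet cells, 40.2 and 50.8 CPM in cells without a gate, and 23.8 and 55.8 CPM in cycling cells. Stem cells had 17.6 and 32.3 CPM, tuft cells 19.7 and 22.1 CPM, and Paneth cells 2.65 and 25.8 CPM. In the control the intervals of enterocytes and goblet cells overlapped, as did those of stem and tuft cells. Between libraries Ly6a was higher in cycling cells, with a ratio of 2.35 (2.08 to 2.65), in stem cells at 1.83 (1.24 to 2.61) and in cells without a gate at 1.26 (1.12 to 1.42). With 1 marker fewer required, the log2 ratio in cells without a gate was 0.0068 in place of 0.34, so that difference ended. Its ratios of 0.961 in enterocytes, 1.02 in goblet cells and 1.12 in tuft cells had intervals that include equality. With 1 marker more required, the log2 ratio in goblet cells was -0.31 in place of 0.03.

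Krt7 was highest in goblet and enteroendocrine cells, and lowest in Paneth cells. In the control it reached 188 CPM (172 to 204) in goblet cells, against 75.3 CPM (71.8 to 78.9) in stem cells, 71.4 in tuft cells, 69.4 in cells without a gate, 53.4 in cycling cells, 43.9 in enterocytes and 18.5 in Paneth cells. The 43 enteroendocrine control cells had 270 CPM (213 to 338) from 77 UMIs, above goblet cells, and the 24 antagonist ones 92.2 CPM (56.3 to 142) from 20 UMIs. Antagonist goblet cells had 92.2 CPM (83.8 to 101), cycling cells 51.4, cells without a gate 49.9, enterocytes 46.7, tuft cells 46.1, stem cells 40.1 and Paneth cells 31.8, so that goblet and enteroendocrine cells were level there and the remaining gates lay between 31.8 and 51.4 CPM. Krt7 was lower in antagonist goblet cells, with a ratio of 0.491 (0.432 to 0.557), in stem cells at 0.532 (0.381 to 0.725) and in cells without a gate at 0.718 (0.649 to 0.795). In cycling cells the ratio was 0.962 (0.875 to 1.06), in enterocytes 1.06 (0.759 to 1.49) and in tuft cells 0.646 (0.393 to 1.02). With 1 marker fewer required, the log2 ratio in cycling cells was -0.27 in place of -0.06.

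Anxa3 was concentrated in goblet cells. The goblet gate held 32 of the 59 control UMIs, in 24 cells, and 36 of the 84 antagonist UMIs, in 35 cells, although it held 3.78% and 8.04% of thinned cells. Its level there was 11.2 CPM (7.63 to 15.7) and 7.42 CPM (5.20 to 10.3), a ratio of 0.665 (0.402 to 1.11) whose interval includes equality. Every other gate held 15 or fewer UMIs of Anxa3. Cd55 stood at 17.8 CPM (12.0 to 25.4) and 16.6 CPM (10.9 to 24.4) in enterocytes, and at 9.17 CPM from 14 UMIs and 6.01 CPM from 3 UMIs in tuft cells. The few enteroendocrine cells of the control had 35.1 CPM (16.8 to 64.6) from 10 UMIs, an interval that overlaps that of enterocytes, and those of the antagonist library had none. Stem cells had 4.17 and 2.93 CPM of Cd55, and cycling cells 2.74 and 2.45.

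Most Clu UMIs lay outside the differentiated gates, as did most cells. In the control, 23 UMIs were in 16 stem cells, 17 in 14 cycling cells, 6 in cells without a gate and 9 in the tuft cell named above. Paneth cells held 2, a goblet cell 1, a cell in more than 1 differentiated gate 2, and cells with under 3000 UMIs 7. Stem, cycling and ungated cells made up 47.2%, 22.7% and 19.5% of thinned control cells, so Clu is not shown to avoid the differentiated gates. Of the antagonist UMIs, 3 were in stem cells, 6 in cycling cells, 4 in cells without a gate and 8 in cells with under 3000 UMIs. Enterocytes of both libraries held none, which allows at most 2.19 and 2.36 CPM by the upper interval bound. The 12 control UMIs of Anxa1 lay in stem cells (2), cycling cells (5), tuft cells (3) and cells without a gate (2), and the 10 antagonist UMIs were also scattered, 4 of them in cycling cells. No gate held more than 5 UMIs of Anxa1.

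The Paneth gate stood apart. There Anxa2 differed 38.4-fold (16.1 to 120), Ly6a 9.73-fold (5.03 to 21.0) and Krt7 1.71-fold (1.25 to 2.36), all higher in the antagonist library, but 90% of 8174 genes were at least 1.5-fold higher there and 2.1% as much lower, with a median log2 ratio of 1.72. Control Paneth cells had a median of 24836 UMIs, most of them from the marker genes of the gate, and antagonist ones 5224.5. With 1 marker more required, the Krt7 log2 ratio in the Paneth gate was -0.65 in place of 0.78. Paneth cells had a Krt7 UMI in 9.68% (control) and 7.94% (antagonist) of thinned cells, an Anxa2 UMI in 0% (0 of 93, which allows up to 3.89%) and 13.6%, and a Ly6a UMI in 3.23% and 7.48%. Control stem cells had Anxa2 in 6.08% (5.31 to 6.91) and Ly6a in 4.73%, and antagonist stem cells in 9.95% and 6.47%, so that Anxa2 was found in more stem than Paneth cells in the control and in fewer in the antagonist library. The antagonist Paneth gate, whose cells carried fewer Paneth transcripts, is thus no low reference.

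Counts of members within the gates stand beside those of all genes with 20 or more UMIs in the same gate. In stem cells 3 of 5 measured members were at least 1.5-fold higher (Clu, Ly6a, Anxa2) and 1 at least 1.5-fold lower (Krt7), against 11.6% and 20.8% of all genes. The Clu value there, from 23 and 3 UMIs, has an interval of 0.558 to 9.60. In cycling cells 2 of 5 were higher (Ly6a, Anxa2) and 1 lower (Clu), against 7.95% and 16.6%. In cells without a gate 1 of 5 was higher (Anxa2) and none lower, against 6.29% and 12.7%. In goblet cells none of 5 was higher and 2 were lower (Krt7, Anxa3), against 10.9% and 12.2%. In enterocytes none of 4 passed in either direction, against 9.4% and 7.65%, and in tuft cells 1 of 3 was lower (Krt7), against 10.3% and 18.6%.

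**Figure D2:**
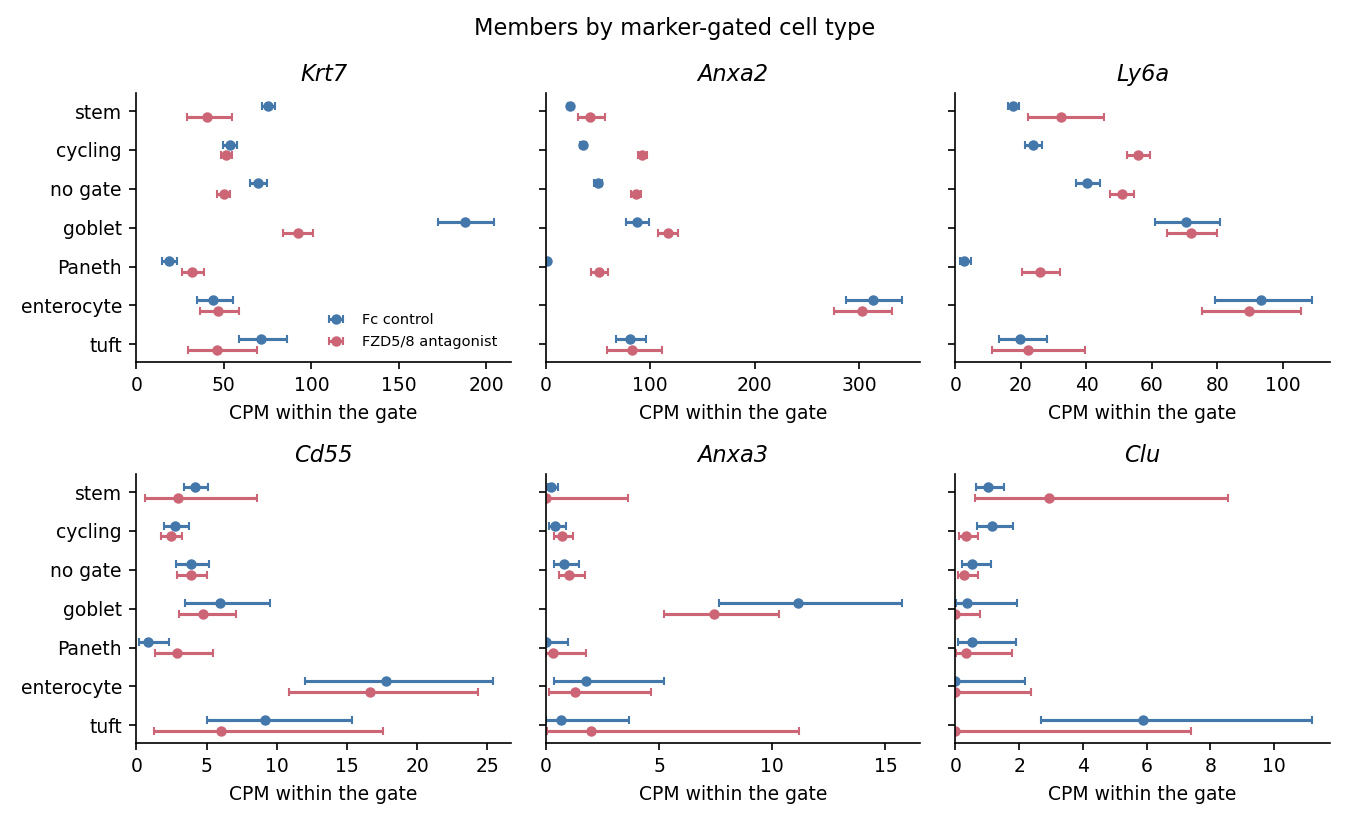
CPM of 6 members within each gate (rows) for the Fc control (blue) and FZD5/8 antagonist (red) libraries; bars are 95% counting intervals and each panel has its own axis from 0. Among the 7 gates drawn, which leave out enteroendocrine cells, Anxa2, Ly6a and Cd55 are highest in enterocytes and Krt7 and Anxa3 in goblet cells, and for Anxa2 and Ly6a the 2 libraries overlap in enterocytes and separate in cycling cells.

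Levels were also read against the number of markers that a cell carried, counted as for the gates. Cells were taken by gate, so those with 5 or more enterocyte or 4 or more goblet markers are the enterocyte and goblet gates themselves. In control cells of the stem, cycling, ungated and enterocyte gates, Anxa2 was 25.5 CPM (23.7 to 27.3) with 0 of 10 enterocyte markers, 68.3 CPM with 2, 211 CPM (183 to 241) with 3 to 4 and 314 CPM with 5 or more. The same steps in the antagonist library gave 58.2 CPM (49.7 to 67.8), 97.5, 113 (106 to 119) and 303 CPM. The antagonist library was thus higher at 0 markers, lower at 3 to 4 (63 control and 737 antagonist cells) and level at 5 or more. Krt7 did not follow enterocyte markers, with 71.2 CPM at 0 and 43.9 at 5 or more in the control and 41.8 and 46.7 CPM in the antagonist library.

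Among stem, cycling and ungated cells, control cells with more stem markers had less Anxa2 and Ly6a. From 0 to 6 or more of 10 stem markers, Anxa2 went from 158 CPM (138 to 180) to 16.7 CPM (14.2 to 19.5), and Ly6a from 87.1 to 13.1 CPM. In the antagonist library Anxa2 was 94.4 CPM (86.8 to 103) at 0 markers, 90.7 at 2 and 69.7 CPM (58.9 to 82.0) at 4 to 5, and Ly6a 56.4, 53.7 and 38.4 CPM. At 4 to 5 stem markers Anxa2 was therefore higher in the antagonist library (69.7 against 24.2 CPM), and at 0 markers lower (94.4 against 158 CPM, from 858 and 107 cells). Control cells with 0 stem markers had a median of 10435 UMIs and those with 4 to 5 had 5833, so depth moved with the marker number, and its part was not tested. Krt7 changed little over the same range, from 53.9 to 72.0 CPM in the control and from 48.0 to 51.2 CPM in the antagonist library.

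Along goblet markers Krt7 in the control was 64.3 CPM with none of 8, 96.5 with 1, 173 (146 to 203) with 2 to 3, 190 with 4 to 5 and 181 (151 to 217) with 6 or more. In the antagonist library it was 40.6, 60.2, 64.2 (59.2 to 69.4), 81.1 and 149 CPM (124 to 179). The libraries differed most at 2 to 3 markers, and at 6 or more their intervals overlapped. Anxa3 was 36.0 CPM in control and 20.3 CPM in antagonist cells with 6 or more goblet markers, against 0.3 and 0.6 CPM with none.

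Control cells with an Lgr5 UMI after thinning (1359 of 7536) carried Anxa2 in 5.15% (4.04 to 6.46) and Ly6a in 4.93% (3.84 to 6.22), against 10.3% (9.53 to 11.1) and 6.90% (6.28 to 7.56) of cells without one. Krt7 was found in 18.8% (16.8 to 21.0) and 18.6% (17.6 to 19.6) of these cells, with overlapping intervals. Of the antagonist cells 39 had an Lgr5 UMI, too few for such a split.

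**Figure D3:**
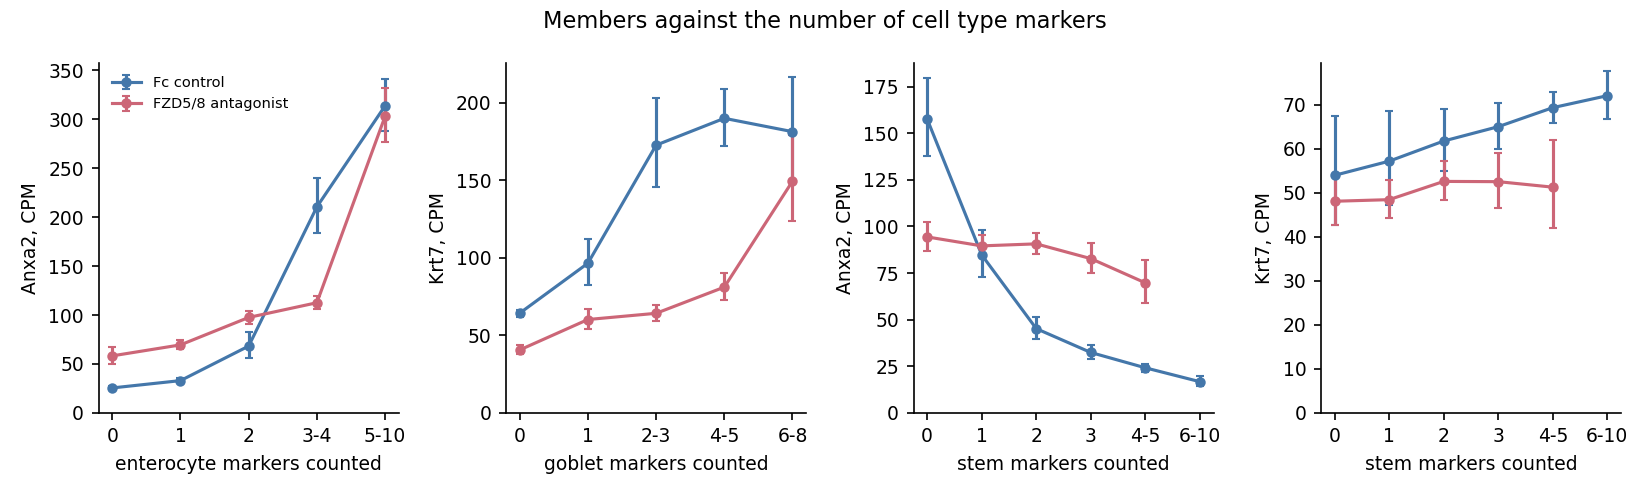
CPM of Anxa2 by number of enterocyte markers, Krt7 by number of goblet markers, and Anxa2 and Krt7 by number of stem markers, for the Fc control (blue) and FZD5/8 antagonist (red) libraries; bars are 95% counting intervals. Anxa2 goes up with enterocyte markers in both libraries and down with stem markers mainly in the control, from 158 to 16.7 CPM, and Krt7 in the antagonist library nears the control only at 6 or more goblet markers.

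Cells with several members were uncommon. At 3000 UMIs, 2 or more of the 7 members were found in 311 control cells (4.13%, 3.69 to 4.60) and 374 antagonist cells (7.43%, 6.72 to 8.19). For 3 or more the numbers were 24 (0.318%, 0.204 to 0.473) and 35 (0.695%, 0.485 to 0.965), and 1 antagonist cell had 4. Of the cells with 3 or more, 12 of 24 and 25 of 35 held the 3 abundant members Ly6a, Anxa2 and Krt7 together. The next pattern was Ly6a with Anxa3 and Krt7 in the control (5 cells). Leaving Anxa2 out, 2 or more of the remaining 6 were found in 1.71% and 2.44% of cells. Then 3 or more were found in 6 control cells (0.0796%) and 2 antagonist cells (0.0397%), the other direction, with overlapping intervals.

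The rarer members Clu, Anxa1, Anxa3 and Cd55, each detected in at most 1.27% of thinned cells, were seldom found together. At this rarity few joint cells are found whether or not the genes go together, so the counts below cannot tell these apart. At 3000 UMIs no control cell and 1 antagonist cell held 2 of these 4, and the 0 of 7536 allows a share of up to 0.0489%. Without thinning 7 control and 10 antagonist cells did, with medians of 12557 and 63353 UMIs. Clu and Anxa1 shared no cell in either library. Clu and Ly6a shared 2 thinned control cells and 1 antagonist cell.

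The cells with 3 or more members lay in the goblet gate more than in any other gate. Antagonist cells of that gate also carried Paneth and cycling markers, as given above. The goblet gate held 8 of the 24 control cells (33.3%) and 13 of the 35 antagonist cells (37.1%), and it made up 3.78% and 8.04% of all thinned cells. Within it, 2.81% (1.22 to 5.46) of control and 3.21% (1.72 to 5.43) of antagonist cells had 3 or more. Enterocytes followed with 4 of 160 and 4 of 230 cells, or 2.50% and 1.74%. Cells without a gate held 6 and 8 such cells and cycling cells 2 and 9. Of 3554 control stem cells, 3 had 3 or more members, a share of 0.0844%, and 1 of 201 antagonist stem cells. No Paneth or enteroendocrine cell and no cell in more than 1 differentiated gate had 3 or more.

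For 2 or more members the shares in goblet cells were 17.9% and 17.3% and in enterocytes 20% and 19.1%, so within these gates the libraries were level. In cycling cells the share was 2.81% (2.08 to 3.70) in the control and 6.89% (5.77 to 8.15) in the antagonist library. In stem cells it was 2.59% and 1.99%. Of the enteroendocrine cells, 8 of 43 control and 1 of 24 antagonist cells had 2 or more. Of the 311 control cells with 2 or more members 29.6% were stem cells, a gate that made up 47.2% of thinned control cells. Of the 374 antagonist cells 33.7% were cycling cells, a gate that made up 36.3%. The control stem gate thus held a smaller share of such cells than of all cells. The antagonist cycling gate was near its share, since the interval of its 6.89% (5.77 to 8.15) includes the 7.43% of all antagonist cells.

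Anxa2 was found in 14% of control cells with Ly6a and 9.03% of those without, and in 24.6% and 19.2% of antagonist cells. These shares pool gates that differ in both genes. Within control stem cells Ly6a was found in 2.78% (1.03 to 5.95) of cells with Anxa2 and 4.85% (4.15 to 5.64) of those without, and within control cycling cells in 10.9% (6.06 to 17.5) and 5.44% (4.37 to 6.67). Antagonist cycling cells had 14.2% and 10.6%, and antagonist cells without a gate 11.2% and 11.1%. The pooled direction was therefore not that of every gate. Krt7 was found in 17.0% of control cells with Ly6a and 18.7% of those without, so that these 2 members did not go together there, and in 16.5% and 13.1% of antagonist cells. Anxa3 and Krt7 shared 8 of the 18 control cells with Anxa3, or 44.4% (21.5 to 69.2), against 18.6% of cells without it, and both were high in goblet cells. Within goblet cells of the control, Krt7 cells had Anxa2 in 18.3% and Ly6a in 17.5%, against 18.2% and 17.6% of goblet cells without Krt7. Sparse counts limit all these shares.

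Cells with 3 or more members, pooled over all gates, held more transcripts of goblet and enterocyte markers than cells with no member. The goblet and enterocyte gates held 8 and 4 of the 24 control cells and 13 and 4 of the 35 antagonist cells. In CPM, goblet markers summed to 48097 in the 24 control cells and 36333 in the 35 antagonist cells, against 2175 and 3970 in cells with no member. Enterocyte markers summed to 11236 and 10733, against 2122 and 6035. Stem markers went the other way, from 4821 in control cells with no member to 1986 in those with 3 or more, and from 886 to 648 in the antagonist library. A wider list of 27 regenerative and fetal genes summed to 489 CPM in control cells with no member, 555 with 1, 767 with 2 and 1125 (893 to 1398) with 3 or more. It summed in antagonist cells to 670, 824, 1041 and 1476 CPM (1253 to 1728). Over all kept cells Krt19 alone made up 376 of the 513 CPM of this list in the control, and 690 of 811 in the antagonist library. These sums therefore weigh Krt19 most, and they were not split by gene. Transcripts of the interferon response went from 2448 to 3847 CPM and from 2256 to 3790 CPM over the same steps.

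Depth before thinning was 7446.5 UMIs in the median control cell with 3 or more members and 6027 in those with none, and 5367 and 4896 in the antagonist library. Doublets had not been removed. Without thinning, 34 control and 76 antagonist cells had 4 or more members, with medians of 17691.5 and 53668.5 UMIs, and 1 antagonist cycling cell had 6. Of those 76 cells, 29 were cycling and 21 goblet cells. The part of doublets in such cells was not tested.

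**Figure D4:**
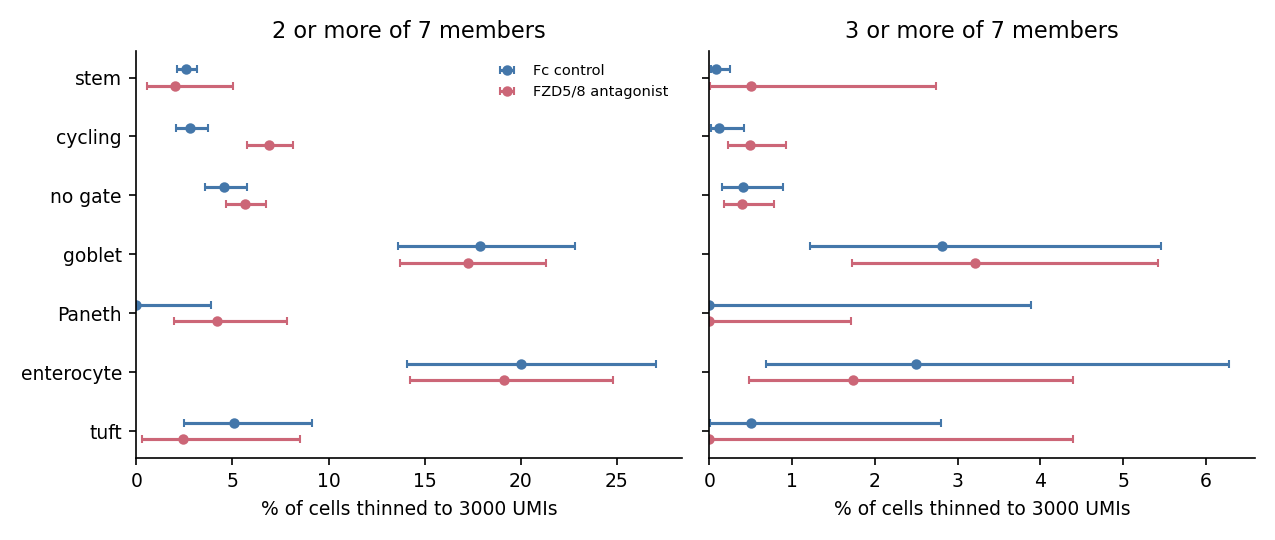
Share of cells thinned to 3000 UMIs with 2 or more members (left) and 3 or more (right), by gate, for the Fc control (blue) and FZD5/8 antagonist (red) libraries; bars are exact 95% intervals. Goblet cells and enterocytes lie near 17 to 20% in the left panel with both libraries level, and cycling cells are at 2.81% and 6.89%.

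Genes related to the members did not move in 1 direction. Of the wider regenerative and fetal list, 18 of 27 genes in the files had 20 or more UMIs, 6 were higher and 12 lower in the antagonist library, with a median log2 ratio of -0.32. Of all 13757 genes 34.8% were higher, close to the 6 of 18 here, and their median was -0.15. At least 1.5-fold differences counted 4 upward and 7 downward, against 6.5% and 19.3% of all genes, shares that apply to each list of this and the next paragraphs. The highest ratios were of Emp1, a membrane protein of epithelia (1.59 and 4.22 CPM), S100a6, a calcium-binding protein (21.1 and 40.0 CPM), and Krt19 (376 and 690 CPM). The lowest were of Trp53inp1, a p53 target (20.4 and 5.25 CPM), Ajuba, a LIM protein that restrains Hippo signalling (1.06 and 0.313 CPM), and Lamb3, a laminin chain (8.96 and 2.80 CPM). Cyr61 and Amotl2, known targets of YAP, were at 1.86 and 0.736 CPM and at 2.48 and 0.939 CPM. Msln and Ankrd1 were at 0 in both libraries.

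Of 15 genes of the YAP and TEAD machinery, 1 was higher and 14 were lower, none by 1.5-fold upward and 5 by 1.5-fold downward, with a median of -0.24 against -0.15 for all genes, of which 34.8% were higher. Tead2 was lowest (4.33 and 0.994 CPM), followed by Wwtr1, which encodes TAZ (4.24 and 1.84 CPM). At the top stood Mob1b (50.9 and 55.8 CPM) and Stk4 (28.9 CPM in both). Yap1 itself was at 26.9 and 20.1 CPM.

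Among the relatives of the annexins, 4 of 8 were higher and 4 lower, with a median of 0.05. S100a10, the partner with which annexin A2 forms a complex, stood at 423 CPM in the control and 632 CPM in the antagonist library, in the same direction as Anxa2, with a ratio of 1.49 (1.47 to 1.52). Anxa9 had the next ratio, from 21 UMIs in all, and Anxa6 (0.423 and 0.276 CPM) and S100a11 (111 and 105 CPM) were lowest. Keratins split: Krt20, of mature surface epithelium, stood at 18.2 and 36.7 CPM and Krt19 at 376 and 690 CPM, while Krt18 stood at 1080 and 562 CPM and Krt23 at 11.1 and 5.37 CPM. Of the 5 keratins, 3 were at least 1.5-fold higher and 2 at least 1.5-fold lower, against 6.5% and 19.3% of all genes.

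Of the other Ly6 genes, Ly6e alone had 20 or more UMIs, with 342 and 357 CPM. Complement regulators had 1 higher and 5 lower of 6, with a median of -0.45, where 34.8% of all genes were higher. Cd59b (1.95 and 2.87 CPM) and Cd59a (2.66 and 2.65 CPM) were highest, and Cfi (13.2 and 5.28 CPM) and Cd55b were lowest. Of 20 interferon response genes, a response that is known to include Ly6a, 4 were higher and 16 lower, with a median of -0.33. Among all genes 34.8% were higher, and the median was -0.15. Psmb9 (206 and 286 CPM) and Ifi27l2b (674 and 765 CPM) were highest, and Gbp2 (0.695 and 0.184 CPM) and Ifit2 (15.2 and 7.05 CPM) lowest.

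**Figure D5:**
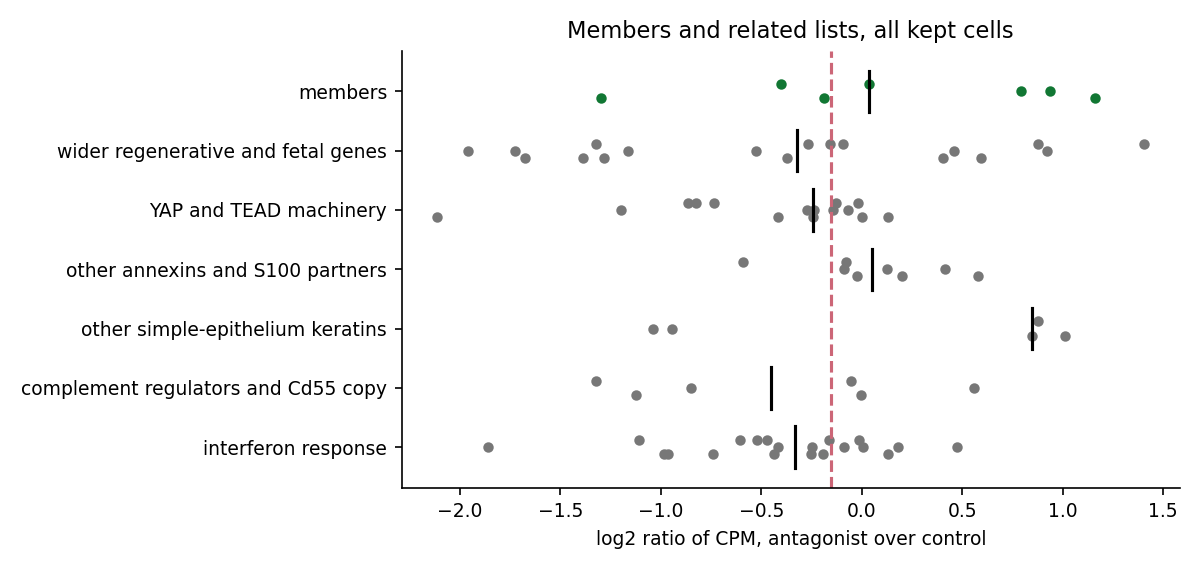
Log2 ratio of CPM, antagonist over control, over all kept cells, for the members (green) and the related lists other than the Ly6 genes (grey). A point is 1 gene with 20 or more UMIs, black bars are medians and the dashed line is the median of all 13757 such genes (-0.15). Members, wider regenerative genes and YAP and TEAD genes lie on both sides of the line.

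For each member with 100 or more UMIs, the genes with the most similar levels were sought over 14 profiles, 7 gates in 2 libraries, by the correlation of log2(CPM + 1) among 10924 genes. The profiles share library, depth and the amount of marker RNA, so the coefficients are descriptions. Ly6a was most like Lrrc59 (r = 0.98), Phgr1 (0.97) and Fam3c (0.97). Anxa2 was most like Serpinb6a, Ckmt1 and Actb (0.97 each), and Cd55 most like Plec, Vil1 and Ifit1 (0.96 each), Vil1 encoding the brush border protein villin. Krt7 was most like Fndc3a, Stard10 and Dll1 (0.94 each), of which Dll1 is the Notch ligand of secretory progenitors. Anxa3 was most like C1galt1c1 (0.93) and Hyou1 (0.92), where C1galt1c1 encodes a chaperone needed for mucin-type O-glycans and Hyou1 a chaperone of the endoplasmic reticulum.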

How the data were processed

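The authors deposited UMI counts per gene and cell barcode, 1 matrix for each of 2 libraries, not normalized. Cell Ranger and GRCm38 are named in the submitters' processing notes, and version 3.1.0 stands in the file headers. The sources used here do not say how barcodes were chosen or whether counting used strand. Genes on the opposite strand overlap Anxa1, Anxa2, Krt7 and Cd55, the most counted being Gm671 at Krt7 with 100 and 59 UMIs.

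A cell was kept with 500 or more genes and up to 20% of mitochondrial UMIs (66206242 and 54328008 UMIs in all). UMIs were summed per library or gate and scaled to that total as CPM. Intervals are at 95%, Poisson for levels, conditional binomial for ratios and Clopper-Pearson for shares. UMIs from 3' ends do not scale with transcript length. For a list, 0.5 was added to each sum of UMIs and the median log2 ratio taken over its genes with a total of 20 or more.

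Cells thinned to 3000 UMIs passed a gate with 4 of 10 stem, 4 of 10 cycling, 4 of 10 tuft or 3 of 11 enteroendocrine markers at 1 UMI or more, or with 4 of 8 goblet, 6 of 8 Paneth or 5 of 10 enterocyte markers at 3 UMIs or more. Differentiated gates came before cycling, and cycling before stem. Cells with 2 differentiated gates were set aside as mixed, and so were 3 control and 2 antagonist cells with 3 markers of a non-epithelial list. Doublets were not removed and no doublet caller was run. The levels by marker number and the Lgr5 split were added after seeing the gates.

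The members, the lists and the rule for named genes (the highest and lowest ratios of each list, and the 3 most similar genes) were chosen with earlier results of these data known. Some genes that this rule or a list would name are not reported here. The calculation was tested on simulated Poisson counts for 13757 genes. The interval covered the true ratio for 95.7% of unchanged and 96% of 200 changed genes. The intervals assume such counts, so this checks the calculation and not whether the UMIs of these libraries follow the assumption. UMIs that gather in single cells were not simulated. Coordinates came from GENCODE M21 and promoters from RefSeq, which matched 4 of the 7 members. Alternatives were other cell filters, scalings, weightings, gate thresholds, thinning depths, a second thinning seed and other limits on low counts. Python 3.11.15, numpy 2.4.6, scipy 1.17.1 and pandas 2.3.3 were used.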

Additional observations from a re-analysis of the deposited data

Results flagged for a closer look

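In CPM, Krt7 differed in opposite directions between gates, with the Paneth gate alone on the higher side. Its log2 ratio, antagonist over control, was -0.89 in stem cells, -1.03 in goblet cells and -0.48 in cells without a gate, where the intervals exclude equality on the lower side, and 0.78 in Paneth cells, where the interval excludes it on the higher side. The difference between the gates was not tested. In the Paneth gate 90% of 8174 genes were at least 1.5-fold higher in the antagonist library, and with 1 marker more required its Krt7 value was -0.65. The median log2 ratio of those genes was 1.72, above the 0.78 of Krt7. After thinning, Krt7 was found in 9.68% of control and 7.94% of antagonist Paneth cells. The higher Krt7 level in Paneth cells is therefore not set apart from the other genes of that gate.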

How the results depend on the processing

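Of 212 values under alternatives, 156 stayed within the counting interval of the main value (for a list, within an order-statistic interval of its median), 54 lay outside it and 2 reversed. A value counted as reversed only where the main interval excluded equality. Other changes of sign, as for Ly6a in goblet cells, are among the 156 or the 54. No paired analysis was possible because each condition is 1 library and no replicate could be left out. Counting depth limits Clu, Anxa1 and Anxa3, and no alternative replaces replicate libraries. Among alternatives for the log2 ratios over all cells, weighting the gates alike was chosen after seeing the data. It used only cells with at least 3000 UMIs and left out enteroendocrine, mixed and non-epithelial cells. This weighting gave -0.16 for Clu, 0.66 for Ly6a, 0.84 for Anxa2, -0.16 for Anxa3, which reversed, and -0.48 for Krt7. Median-ratio scaling gave 1.07 for Ly6a, 1.30 for Anxa2 and -0.27 for Krt7. Without the 5% of cells with most UMIs Clu was -0.53 and Krt7 -0.62, and with each cell counted alike they were -0.39 and -0.58. The cause was not tested.

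With 1 marker more required, levels were 112 CPM for Krt7 in antagonist goblet cells, 340 CPM for Anxa2 in antagonist enterocytes and 88.5 CPM for Ly6a in control goblet cells. Log2 ratios were then -0.74 for Krt7 in goblet cells, -0.65 for Krt7 in Paneth cells, which reversed, 0.34, 0.17 and 1.10 for Anxa2 in stem cells, goblet cells and cells without a gate, and -0.31 and 0.69 for Ly6a in goblet cells and cells without a gate. With 1 marker fewer, levels were 83.1 CPM for Krt7 and 4.71 CPM for Anxa3 in antagonist goblet cells and 225 CPM for Anxa2 in antagonist enterocytes. Log2 ratios were then -0.27 and 1.37 for Krt7 in cycling and Paneth cells, -0.41 and 0.40 for Anxa2 in enterocytes and cells without a gate, and 0.0068 for Ly6a in cells without a gate.

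Shares of cells follow depth by construction. Thinned to 1500 UMIs, control and antagonist shares were 3.15% and 6.60% for Ly6a, 4.92% and 9.74% for Anxa2, 0.104% and 0.221% for Anxa3, 11.2% and 7.09% for Krt7 and 0.666% and 0.613% for Cd55, and 0.156% for Clu in the control. Unthinned they were 10.2% and 14.9%, 14.1% and 21.3%, 0.444% and 0.735%, 28.8% and 16.6%, 2.39% and 1.80%, and 0.426%, in the same order. The share with 3 or more members was 0.0728% and 0.147% at 1500 UMIs, and 2.53% and 4.11% unthinned. Of these shares, the antagonist value was the higher one for 3 or more members at each depth. List medians, for lists with 3 or more measured genes, kept their sign under every alternative run. That of the members was 0.79 with 100 or more UMIs and 0.17 with median-ratio scaling, against 0.03, and that of the complement regulators was -0.05 with 1 or more UMI, against -0.45.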
